A study of Mus musculus with 2 samples.

Results

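The genes described here encode Serpinb2, 3 further serpins of clade B and the enzymes and receptor of plasminogen activation, in mouse hair follicles. The members were Serpinb2, Serpinb5, Serpinb6a, Serpinb8, Plau, Plaur, Plat and Serpine2, found by an exact match of the gene symbol in the platform annotation. Of these 8 genes, 7 had at least 1 probe set under their own symbol, of 18193 genes in all, and they were read by 13 of the 45037 probe sets that are not array controls. Serpine2, which encodes a secreted inhibitor of thrombin and of plasminogen activators, has no probe set in that annotation and is not analysed here. The genes were chosen by their signals on the transgenic array against the wild-type array, so those values are given as a description.

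RNA of hair follicles at postnatal day 10 was hybridised to 2 Affymetrix mouse arrays of the same design. One array held the follicles of dnFGFR2-IIIb transgenic mice, whose transgene is named for the IIIb splice form of fibroblast growth factor receptor 2, and the other held follicles of wild-type mice. Each pool had about 300 follicles, with about 100 from each of 3 mice of different litters. The promoter that drives the transgene and the strain of the mice are not given in the labels. With 1 array per group there is no spread between samples and no test, and pooling hides the differences between mice. Precision is limited throughout by the number of arrays. The pools also differed in sex-linked genes. Xist, the RNA of the inactive X chromosome, read 1145.8 in transgenic and 352.0 in wild-type follicles. Eif2s3y, on the Y chromosome, read 0.40 in transgenic and 190.9 in wild-type follicles. The sex of the mice and the transgene cannot be told apart in this design.

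Plasminogen activators are serine proteases that cut the inactive precursor plasminogen to plasmin, a protease of fibrin and of the pericellular matrix. Serpins trap their target protease through an exposed reactive loop, and those of clade B lack a classical signal peptide and act largely inside cells. Serpinb2, also called plasminogen activator inhibitor type 2, inhibits the urokinase-type and tissue-type activators and is known from differentiating keratinocytes and from macrophages.

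The clade B members Serpinb5, Serpinb2 and Serpinb8 lie in this order in a cluster of 12 clade B genes on chromosome 1, whereas Serpinb6a lies in a cluster of 16 on chromosome 13. The 250 bases before the annotated start of the chromosome 1 members are shown because these genes share a cluster but differed in their ratio between the arrays. The sequences are from RefSeq, build GRCm38.p6, at chr1:107511173-107511422 for Serpinb2, chr1:106860925-106861174 for Serpinb5 and chr1:107589756-107590005 for Serpinb8, all on the plus strand. Capitals mark matches to TGANTCA, a relaxed form of the motif bound by AP-1 transcription factors, and to TATAAA, the core of the TATA box.
Serpinb2: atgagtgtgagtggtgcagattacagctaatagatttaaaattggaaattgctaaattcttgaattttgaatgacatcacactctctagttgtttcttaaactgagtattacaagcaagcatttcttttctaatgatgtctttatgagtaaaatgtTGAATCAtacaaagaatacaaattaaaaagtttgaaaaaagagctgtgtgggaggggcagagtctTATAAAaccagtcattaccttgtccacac
Serpinb5: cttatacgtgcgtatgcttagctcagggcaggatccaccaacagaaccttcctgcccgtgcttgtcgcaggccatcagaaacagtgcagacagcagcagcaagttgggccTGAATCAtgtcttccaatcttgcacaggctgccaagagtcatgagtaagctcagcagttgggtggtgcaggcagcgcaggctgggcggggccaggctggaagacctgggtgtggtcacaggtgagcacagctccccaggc
Serpinb8: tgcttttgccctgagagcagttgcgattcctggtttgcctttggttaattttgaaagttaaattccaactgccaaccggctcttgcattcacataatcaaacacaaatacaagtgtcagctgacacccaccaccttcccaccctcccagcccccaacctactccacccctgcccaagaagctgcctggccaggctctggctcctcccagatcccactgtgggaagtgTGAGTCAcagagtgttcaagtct
Both strands were searched, for these motifs and for TGACGTCA, the cyclic AMP response element, and the motifs were chosen after the sequences had been read. The marked matches do not overlap. TGANTCA was found in each of these 3 windows and in that of Plaur, and 6.75% of all 32851 windows of this length held it. Serpinb2 was the member with TATAAA, at 29 to 24 bases before its start, a motif held by 12.4% of all windows, and TGACGTCA was in none of the members' windows, against 1.55% of all. The Serpinb2 window had a GC content of 32.4%, and 2.60% of all windows had a lower one. The windows of Serpinb5 and Serpinb8 had 58.8% and 52%, beside a median of 52.4% over all windows. RefSeq gives Serpinb2 a further start, whose window overlaps the one shown and holds the same matches at other distances. TATAAA lies 116 to 111 bases before that start. The GC content of that window is 38.4%, and 9.05% of all windows had a lower one. Windows were found for 6 of the 8 members, and a match is only a description of the letters.

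The deposited values are linear signals in arbitrary units. A signal counted as measured when it exceeded a floor of 10.6, which is the 40th percentile over both arrays, after both arrays had been scaled to the same trimmed mean. The brightest probe set, by its mean, stands for its gene, and a gene is called 2-fold apart when both signals exceed the floor and differ at least 2-fold. Ratios are transgenic over wild type on a log2 scale. Where a gene had several probe sets, their log2 ratios differed with an SD of 0.48 in dim, 0.39 in middle and 0.24 in bright genes. This is a technical spread that does not hold the differences between mice.

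**Figure D1:**
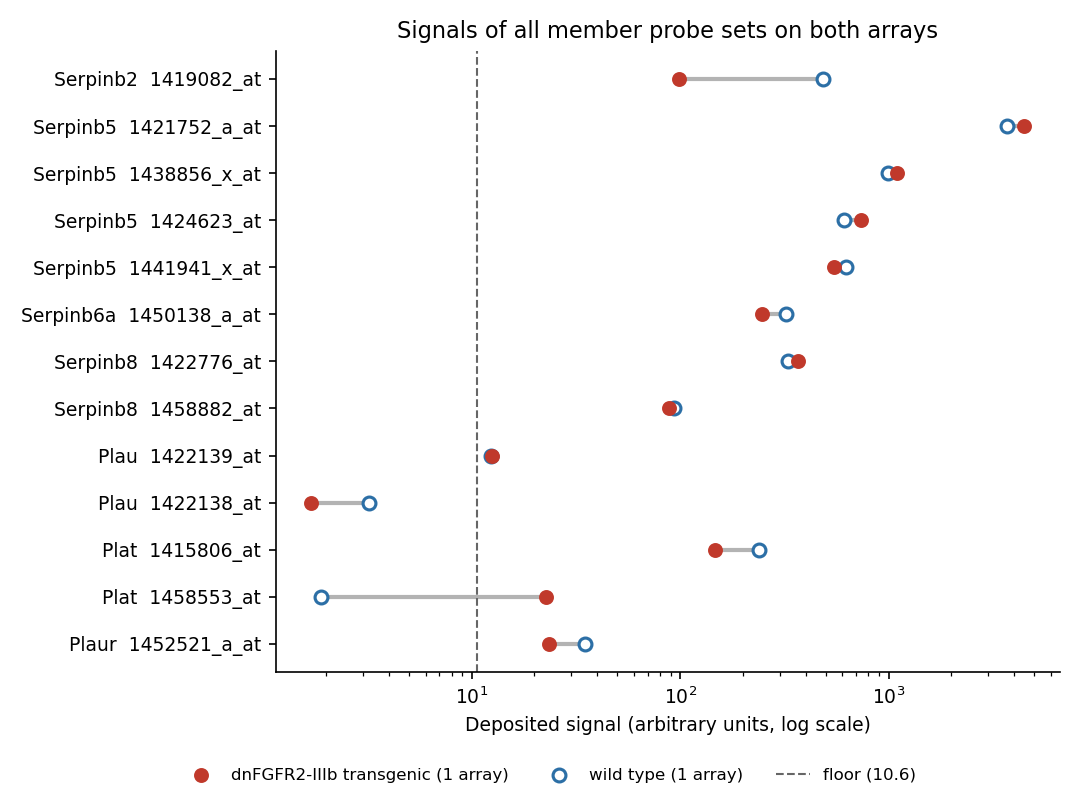
Deposited signal (arbitrary units, log axis) of the 13 probe sets of the 7 members on the transgenic array (filled) and the wild-type array (open), with the floor of 10.6 as a dashed line. The points of Serpinb2 lie apart at 99.0 (transgenic) and 487.1 (wild type), those of most other probe sets over the floor lie close together, and the dimmer Plat probe set crosses the floor.

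Among the inhibitors, Serpinb2 read 99.0 on the transgenic array, against 487.1 on the wild-type array, with its single probe set 1419082_at. It was thus 4.92-fold lower in transgenic follicles, a log2 ratio of -2.30, or 5.89 times the technical SD of its brightness class. Of the 11565 genes over the floor on both arrays, 10 had a lower ratio. In such bulk RNA, fewer cells that express a gene and less of its RNA per cell cannot be told apart. No second probe set is annotated to Serpinb2, so the value has no check from other probes.

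Of the 7 measured members, Serpinb2 was the 1 called 2-fold lower, and 0 were 2-fold higher. Over all genes, 1.58% were called lower and 1.60% higher, together 3.18%. The members' median log2 ratio was -0.39, with 4 ratios below 1 and 3 above, beside a median of -0.00033 over all 11565 genes. Nothing is read from these counts, because the same comparison chose the members.

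Serpinb5, also called maspin, is a clade B serpin of epithelia that does not inhibit proteases, and its probe sets read nearly alike on both arrays. The brightest, 1421752_a_at, read 4474.6 in transgenic and 3722.9 in wild-type follicles, a log2 ratio of 0.26. The next, 1438856_x_at, read 1094.5 and 991.3 on the transgenic and wild-type arrays. Its suffix, which 1441941_x_at also has, marks probes shared with other sequences. Probe set 1424623_at read 737.8 in transgenic and 612.0 in wild-type follicles, and 1441941_x_at read 545.8 in transgenic and 627.5 in wild-type follicles. The log2 ratios thus lay between -0.20 and 0.27, around the technical SD of 0.24, and 3 of the 4 were above 0.

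Serpinb8, which in human inhibits the proprotein convertase furin, also differed little between the arrays. Its probe set 1422776_at read 368.1 in transgenic and 331.1 in wild-type follicles, a log2 ratio of 0.15. The other, 1458882_at, read 88.8 in transgenic and 93.7 in wild-type follicles, a log2 ratio of -0.08. Both ratios were smaller than the technical SD, and their signs differed.

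Serpinb6a, an intracellular inhibitor of trypsin-like proteases and cathepsin G, read 246.2 in transgenic and 323.1 in wild-type follicles at its single probe set 1450138_a_at. The log2 ratio of -0.39, a 1.31-fold lower signal, was 1.62 times the technical SD. Close paralogs of this gene lie beside it on chromosome 13, and its value is uncertain because signal shared between them was not tested.

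**Figure D2:**
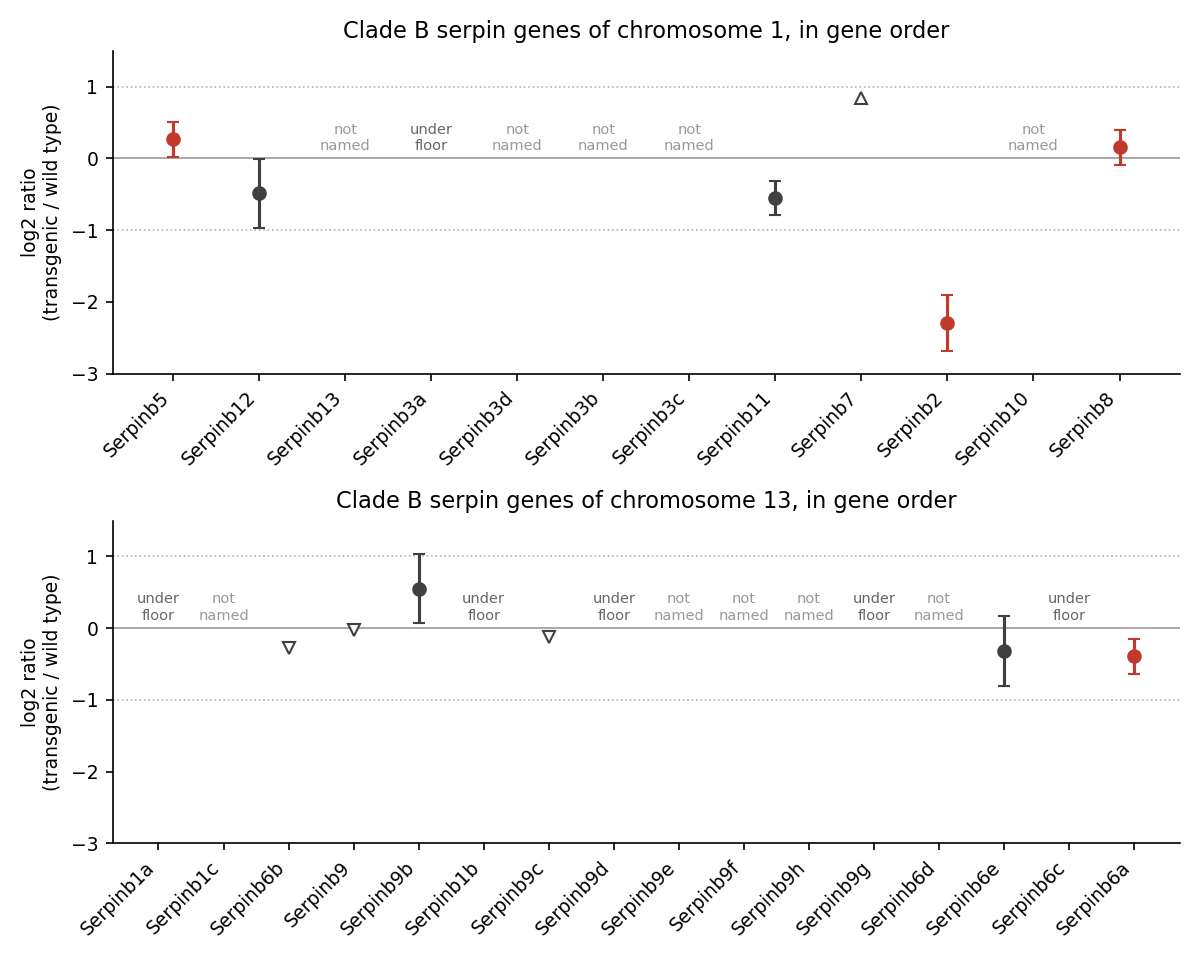
Log2 ratio (transgenic over wild type) of the clade B serpin genes of chromosomes 1 and 13 in gene order; members are red, bars show the technical SD between probe sets of a gene, open triangles are bounds against the floor, words stand for genes under the floor on both arrays or not named in the annotation, and dotted lines mark 2-fold. Serpinb2 at -2.30 lies past the lower line, while every other gene with both signals over the floor lies between -0.55 and 0.55.

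The other clade B serpins were mostly near or under the floor. Of 24 genes on this list, 14 had a probe set of their own, 8 exceeded the floor on at least 1 array and 4 on both. Of those 4, 0 were 2-fold apart, beside 3.18% of all genes, and their median log2 ratio was -0.40. Serpinb11, a trypsin inhibitor in the mouse, read 480.8 in transgenic and 704.7 in wild-type follicles. Its log2 ratio of -0.55 was larger than the technical SD of 0.24. Serpinb6e read 37.6 and 46.8 on the transgenic and wild-type arrays, a log2 ratio of -0.32, and Serpinb12 read 10.9 and 15.3 on the transgenic and wild-type arrays (-0.49). Serpinb9b read 19.5 in transgenic and 13.3 in wild-type follicles (0.55). The ratios of these dim genes were each at most slightly over the technical SD of 0.48. Serpinb7, next to Serpinb2 on chromosome 1, read 18.8 in transgenic follicles and lay under the floor in wild-type follicles, at least 1.79-fold higher. Serpinb6b, Serpinb9 and Serpinb9c exceeded the floor only on the wild-type array, where they read 12.7, 10.7 and 11.4.

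The genes that flank the members on the chromosome read with small differences where they could be measured. Of 15 flanking genes, 10 exceeded the floor on both arrays. Of these 10, 0 were 2-fold apart, beside 3.18% of all genes, and nothing is read from that count among so few genes. Their log2 ratios lay between -0.49 for Serpinb12 and 0.24 for Ikbkb. Neither gene beside Serpinb2 was among the 10. Serpinb10 had no probe set of its own, and Serpinb7 exceeded the floor on the transgenic array only. In the chromosome 1 cluster, 5 of 12 genes were measured on both arrays. Serpinb2, chosen with this ratio known, was the 1 called 2-fold lower, beside 1.58% of all genes.

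The activators and their receptor were not called 2-fold apart. Plat, the tissue-type activator, read 147.4 on the transgenic array, against 239.6 on the wild-type array, at 1415806_at. The log2 ratio was -0.70, a 1.63-fold lower signal and 1.80 times the technical SD. Its other probe set, 1458553_at, went the other way, with 22.7 in transgenic follicles and 1.90 in wild-type follicles, at least 2.16-fold higher. With the mean over both probe sets the log2 ratio of Plat was 0.21, so its direction depends on the choice of probe set.

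Plau, the urokinase-type activator, read 12.5 in transgenic and 12.4 in wild-type follicles at 1422139_at, and 1.70 in transgenic and 3.20 in wild-type follicles at 1422138_at, under the floor. The brightest of 27 control probe sets for Bacillus genes, which have no target in the mouse, read 15.8 on the transgenic and 8.50 on the wild-type array. The Plau signal in transgenic follicles was thus below that of an array control, and no difference in Plau could be seen at this level. The sign of its log2 ratio, 0.01, changed with the scaling, from -0.14 with an intensity-dependent loess to 0.20 with equal spiked controls.

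Plaur, the receptor that holds urokinase at the cell surface, read 23.6 in transgenic and 34.8 in wild-type follicles at 1452521_a_at. The log2 ratio of -0.56 was 1.16 times the technical SD of dim genes. Under the scalings that were tried it stayed below 0.

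**Figure D3:**
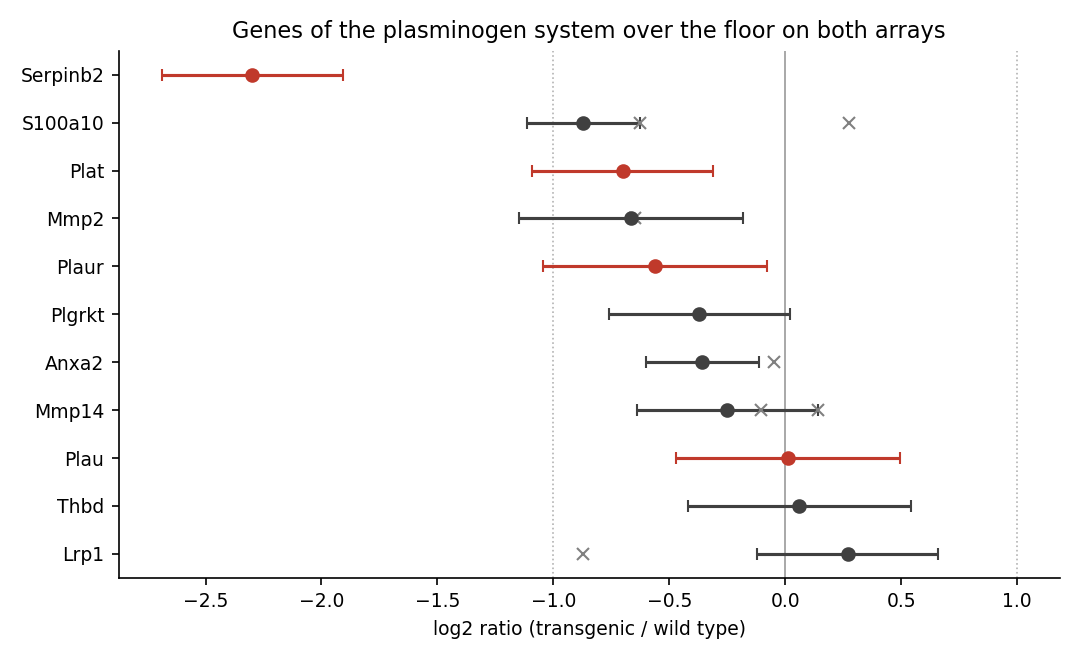
Log2 ratio (transgenic over wild type) of 11 genes of the plasminogen system with both signals over the floor; members are red, points are the brightest probe set with the technical SD as a bar, crosses are further probe sets of the gene over the floor on both arrays, and dotted lines mark 2-fold. Serpinb2 at -2.30 lies past 2-fold. S100a10 follows at -0.87 with crosses at -0.63 and 0.28, and Lrp1 lies at 0.27 with a cross at -0.87.

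Of the other genes that act with plasmin and its activators, the 7 over the floor on both arrays differed less than Serpinb2. Of 18 on the list, 15 had a probe set and 7 exceeded the floor on both arrays. Of these 7, 0 were 2-fold apart, beside 3.18% of all genes, and 5 had a ratio below 1. Their median log2 ratio was -0.36. Plg itself, which encodes plasminogen and is expressed mainly in liver, lay under the floor on both arrays, as did Serpinf2, the plasmin inhibitor, Serpina5 and Hgf. S100a10 and Anxa2 encode the subunits of a surface complex that binds plasminogen and tissue-type activator. S100a10 read 1449.7 in transgenic and 2648.9 in wild-type follicles, a log2 ratio of -0.87. A further bright probe set gave -0.63, and a dim one gave 0.28. Anxa2 read 2191.5 and 2806.3 on the transgenic and wild-type arrays, a log2 ratio of -0.36, with -0.05 at a dimmer probe set. Plgrkt, a plasminogen receptor, read 183.5 in transgenic and 237.1 in wild-type follicles, a log2 ratio of -0.37. Lrp1, an endocytic receptor that clears activator and inhibitor complexes, read 142.0 in transgenic and 117.8 in wild-type follicles, a log2 ratio of 0.27. Its dimmer probe set gave -0.87. The dim gene Mmp2 read 39.3 in transgenic and 62.3 in wild-type follicles, a log2 ratio of -0.67, and a further probe set gave -0.65.

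Serpins of other clades gave 0 genes 2-fold apart among 9 measured on both arrays, beside 3.18% of all genes. Of these 9, 7 had a ratio below 1, and the median log2 ratio was -0.24. The lowest was -0.94 for Serpina11, which read 32.5 in transgenic and 62.3 in wild-type follicles, and the highest was 0.30. Serpinh1, a collagen chaperone, read 201.1 in transgenic and 255.3 in wild-type follicles, a log2 ratio of -0.34, and a further probe set gave -0.28.

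**Figure D4:**
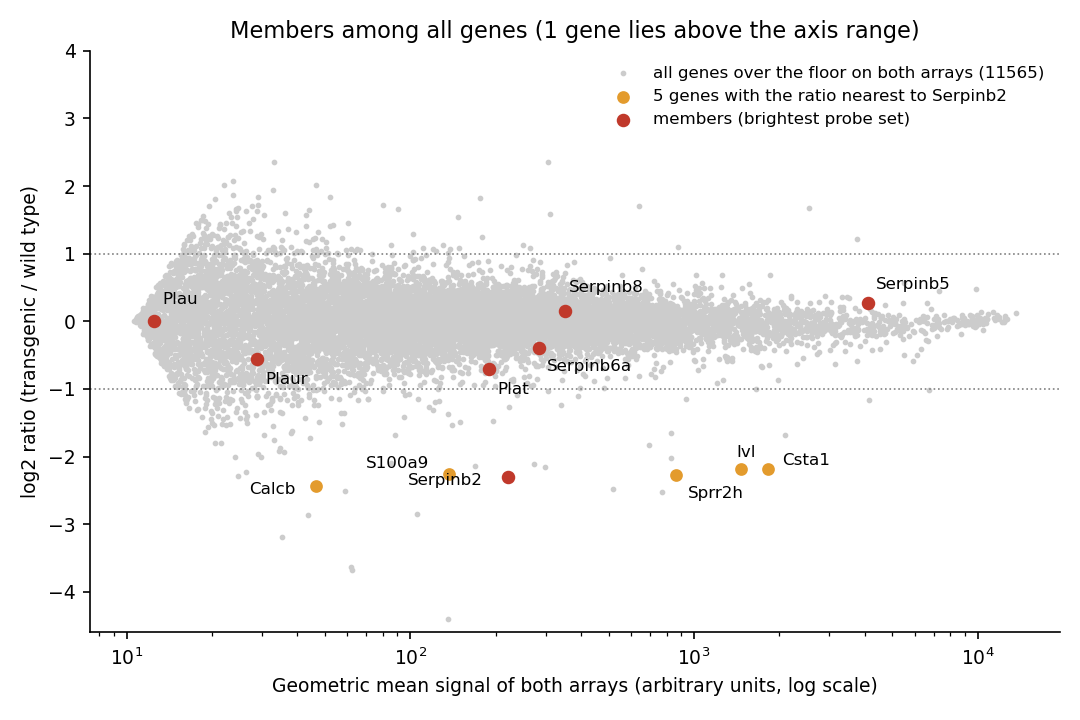
Log2 ratio (transgenic over wild type) against the geometric mean signal of both arrays (log axis) for the 11565 genes over the floor on both; members are red, the 5 genes with the ratio nearest to that of Serpinb2 are orange, and dotted lines mark 2-fold. Serpinb2 lies below the cloud of genes of its brightness, and the other members lie between the dotted lines.

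The genes whose ratio was nearest to that of Serpinb2 were sought among the 6770 genes over the floor on both arrays and over 100 on the brighter one, of which 0.724% were called 2-fold lower. The likeness is that of 1 ratio over 2 arrays. Sprr2h, a precursor of the cornified envelope, read 389.7 in transgenic and 1887.8 in wild-type follicles, and its log2 ratio differed from that of Serpinb2 by 0.02. S100a9, a calcium-binding protein, read 62.0 and 297.9 on the transgenic and wild-type arrays, at a distance of 0.03. Involucrin (Ivl), an envelope precursor, and Csta1, of the stefin inhibitors of cysteine proteases, both lay 0.11 away. Calcb, a calcitonin gene-related peptide, lay 0.13 away, at 19.9 in transgenic and 107.3 in wild-type follicles.

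Markers of other cell types were read beside these values. The 16 hair shaft and inner root sheath genes with a probe set all exceeded the floor on both arrays, with summed signals of 137800 in transgenic and 134988 in wild-type follicles. Of 11 interfollicular epidermis markers, 8 exceeded the floor on at least 1 array, and Krt1, Krt2 and Flg were under the floor on both. Of the 7 over it on both, 4 had a ratio above 1. These log2 ratios were 0.59 for Krt10, 0.73 for Lor, 1.94 for Krt77 and 0.34 for Klk7. The other 3 were -2.19 for Ivl, -0.44 for Cdsn and -0.02 for Tgm1. Krt78 exceeded the floor on the transgenic array only, at least 3.08-fold higher. The 11 markers summed to 5780.4 in transgenic and 8000.3 in wild-type follicles, a sum that holds the 683.1 (transgenic) and 3109.5 (wild type) of Ivl. Of 10 outer root sheath and companion layer genes, all 9 over the floor on both arrays had a ratio below 1 at their brightest probe set. Their median log2 ratio was -0.21, and the 10 genes summed to 18069.5 and 21629.6 on the transgenic and wild-type arrays. At the brightest probe set, the ratios of Krt5, Krt14, Krt6a, Sox9 and Lgr5 were smaller than the technical SD. A further bright Krt14 probe set gave -0.30, or 1.24 times the technical SD. The log2 ratios of Krt15 (-0.42), Krt17 (-0.45), Krt75 (-0.42) and Cd34 (-0.91) were between 1.72 and 1.88 times the technical SD. Further Sox9 probe sets went the other way, with log2 ratios of 0.16 and 0.25. Of 13 leukocyte markers, 9 exceeded the floor on at least 1 array and Ptprc, Itgam, Cd3e and Cd207 on neither, with sums of 301.2 in transgenic and 237.2 in wild-type follicles. Of the 5 over the floor on both arrays, 4 had a ratio above 1, with a median log2 ratio of 0.60. Cd74 was called higher at 22.9 in transgenic and 11.2 in wild-type follicles, the latter just over the floor of 10.6. The brightest probe set of H2-Aa, 1435290_x_at, exceeded the floor on the transgenic array only, which bounds its rise from below at 4.04-fold. For 1438858_x_at and 1452431_s_at this bound was smaller, at 1.70-fold and 1.67-fold, and 1443783_x_at was under the floor on both arrays. Cd14, a marker of macrophages, was at least 2.15-fold lower. The 9 endothelial markers summed to 172.5 in transgenic and 167.0 in wild-type follicles, with Pecam1 under the floor on both arrays, and their ratios went both ways. Cdh5 was called 3.09-fold higher, and Tie1 and Cldn5 had log2 ratios of -0.85 and -0.60. The 10 dermal papilla and fibroblast markers summed to 3067.5 in transgenic and 2252.7 in wild-type follicles, of which Dcn held 1589.9 and 985.0. Their ratios ran from -0.76 to 0.69 on the log2 scale, with Sox2 under the floor on both. The 6 mast cell markers summed to 57.9 in transgenic and 39.5 in wild-type follicles, all near or under the floor. The highest was Cpa3 at 14.4 in transgenic follicles. Fcer1a alone exceeded the floor on both arrays, at 12.1 (transgenic) and 12.0 (wild type). The part of these cell types in the ratios of the members was not tested.

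The scaling of the arrays also bears on these ratios. Of all genes, 185 were called 2-fold higher and 183 lower, and this split moved with the scaling, to 115 and 296 with equal medians, 140 and 230 with quantile normalization, 134 and 235 with loess, and 314 and 103 with equal spiked controls. The median log2 ratio of all genes was -0.14 with equal medians and 0.19 with equal spiked controls. Under the same settings the log2 ratio of Serpinb2 was -2.44 and -2.11.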

How the data were processed

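Per the labels, total RNA was isolated with Trizol and hybridised by the manufacturer's protocol. The deposited series table holds 1 linear intensity per probe set and array, which the authors had scaled to a 2% trimmed mean of 100, as the deposited values show. The algorithm that made these values is not given in the sources used here. Per the file headers, the arrays were hybridised in the same session on separate modules of one fluidics station.

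The 64 control probe sets were left out, and the arrays were set to an equal trimmed mean of the other 45037, by factors of 1.0048 (transgenic) and 1.0050 (wild type). Printed signals are as deposited, and ratios come from the rescaled values with a floor at the 40th percentile. In the platform annotation 34945 probe sets had 1 symbol, 932 several and 9160 none, and no gene was named from one with several. The symbols of all 7 measured members matched their gene identifiers in RefSeq (GRCm38.p6), whose table served for names and gene order.

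No test was possible with 1 array per group. Named were all member probe sets, each other clade B serpin over the floor, the largest differences of the other lists among genes over 100, the flanking genes, and the 5 genes nearest to the ratio of Serpinb2. The members and lists were chosen with earlier results of these data known. Steps were tested on simulated data. Tools were Python 3.11.15, numpy 2.4.6, pandas 2.3.3, SciPy 1.17.1, statsmodels 0.14.6 and matplotlib 3.10.9.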

Additional observations from a re-analysis of the deposited data

How the results depend on the processing

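The alternatives were other scalings, a floor at the 20th or 60th percentile or of 50, a pseudocount, the mean over probe sets, dropping probe sets shared between transcripts, and thresholds of 1.5-fold and 3-fold. Serpinb2 kept a log2 ratio between -2.44 and -2.11 in all 11 settings that give it a ratio and was called under both other thresholds. Several of these settings could not change it. A floor below both signals leaves a ratio as it is, and Serpinb2 has 1 probe set, which is not a shared one. The other floors, the mean over probe sets and the drop of shared probe sets thus returned its main value of -2.30. Plat moved to 0.21 with the mean over probe sets and stayed between -0.84 and -0.51 otherwise. Plau changed sign in 3 of 9 settings, and Serpinb5, Serpinb6a, Serpinb8 and Plaur kept theirs wherever they had a value. Plau has none with the floor at the 60th percentile or of 50, Plaur none with the floor of 50, and Serpinb6a and Plaur none without the shared probe sets. At 1.5-fold, 2 of 7 members were called lower, Serpinb2 and Plat, beside 784 of 11565 genes in all.

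With the floor at the 20th percentile, 4 of 10 other clade B serpins were called, 2 in each direction (Serpinb1a, Serpinb3a, Serpinb6b and Serpinb7). So were 1 of 11 plasminogen system genes (Mmp3) and 2 of 12 serpins of other clades (Serpina3i and Serpina9), beside 1530 of 14230 genes in all. At 1.5-fold there were 2 of 7 plasminogen system genes (S100a10 and Mmp2) and 2 of 9 serpins of other clades (Serpina3n and Serpina11). Over all genes there were 1519 of 11565. With equal medians S100a10 and Serpina11 were called, 1 of 7 and 1 of 9 on their lists, beside 411 of 11553 genes. Serpina11 was also called with quantile normalization, beside 370 of 11553 genes, and with loess, beside 369 of 11566. Genes named here or above outside the rule, such as Mmp2 and Serpina11, were chosen after their values were seen. Over all genes the main setting gave 368 calls among 11565 genes. The floors at the 20th and 60th percentiles gave 1530 of 14230 and 111 of 9376, and a floor of 50 gave 59 of 8039. A pseudocount gave 129 of 11565, and the mean over probe sets gave 231 of 11736. Thresholds of 1.5-fold and 3-fold gave 1519 and 67 of 11565. The cause of these changes was not tested. The settings for the serpins of other clades and for all genes were added after seeing the data. No paired analysis was possible because each group has 1 array.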
